A study of Mus musculus with 2 samples.

Results

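The genes of mitochondrial fusion, fission and uncoupling described here were 10 of the 20655 genes named on the array: *Mfn1*, *Mfn2*, *Opa1*, *Oma1*, *Dnm1l*, *Fis1*, *Mff*, *Mief1*, *Mtfp1* and *Ucp2*. They were chosen for what their proteins do in the mitochondrion, and all 15 of their probes were used. The gene microarray compared RAW264.7 cells, an established male BALB/c mouse macrophage line from a tumour induced by Abelson murine leukemia virus, after 24 h with vehicle control and after 24 h with IR-61, the small molecule under study. No other stimulus was named in the labels for either culture. Each condition had 1 single-colour Agilent array, so no difference below has a replicate check between cultures, no test was made and p-values are absent.

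Mitochondria join and divide all the time. MFN1 and MFN2, the mitofusins, join the outer membranes and OPA1 joins the inner ones and shapes the cristae, while the protease OMA1 cleaves OPA1 under stress and stops inner membrane fusion. In fission, FIS1, MFF and MIEF1 sit in the outer membrane and bind the dynamin-like GTPase DRP1, the product of *Dnm1l*, which constricts the organelle; MTFP1 acts at the inner membrane. UCP2 is a carrier of the inner membrane that belongs to the uncoupling proteins and is well known in macrophages and other immune cells.

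None of the 10 genes passed a 2-fold difference between IR-61 and vehicle, as was so for most measured genes. The range they spanned held 60.0% of all measured genes. On the log2 scale, where 1 is 2-fold, the differences (IR-61 minus vehicle) ran from −0.39 for *Mief1* to 0.30 for *Dnm1l*, with a median of −0.14. *Dnm1l*, *Mff* and *Opa1* were on the higher side and the other 7 genes on the lower side. Among the 16885 genes measured on both arrays, 235 (1.39%) were lower by 2-fold or more and 336 (1.99%) were higher, against 0 and 0 of the 10 genes. At 1.5-fold, 5.69% of all measured genes were lower and 9.79% higher, again against 0 and 0 of the 10.

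The sign of these differences depends on how the arrays were set against each other. Each log2 signal is given relative to the 75th percentile of its own array, and these percentiles (10.30 with vehicle, 10.79 with IR-61) put the IR-61 array 0.49 brighter before scaling. After scaling, the median over all measured genes was 0.10, and the same 7 genes lay below that median and the same 3 above it. Without scaling all 10 signals were higher on the IR-61 array, by 0.10 (*Mief1*) to 0.78 (*Dnm1l*), while the median over all genes was 0.59, with 7 of the 10 below it. The gap between the differences of any pair of these genes is the same under every scaling that subtracts a constant from an array.

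Error can be described only within an array. The file headers give both arrays the same scanner and the same scan time. The spread between spots of probes printed at least 5 times gave an SD of the log2 difference of 0.09 to 0.23 for the 10 genes, depending on brightness, and the error that the scanner software attached to each spot gave 0.20. The spot SD was set by bands of log2 intensity before scaling (under 6, 6 to 10, above 10), so it changes in steps at the band edges. By the first measure 8 of the 10 differences exceeded 1 SD and 5 exceeded 2 SD, and by the second 6 exceeded 1 SD and none exceeded 2 SD. These counts are for distances from 0 under the main scaling. Across the settings with scaling *Mief1* ranged from −0.475 to −0.312, so it exceeded 2 software SD under some of them. Both measures leave out the variation between cultures, RNA extractions and hybridizations.

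**Figure D1:**
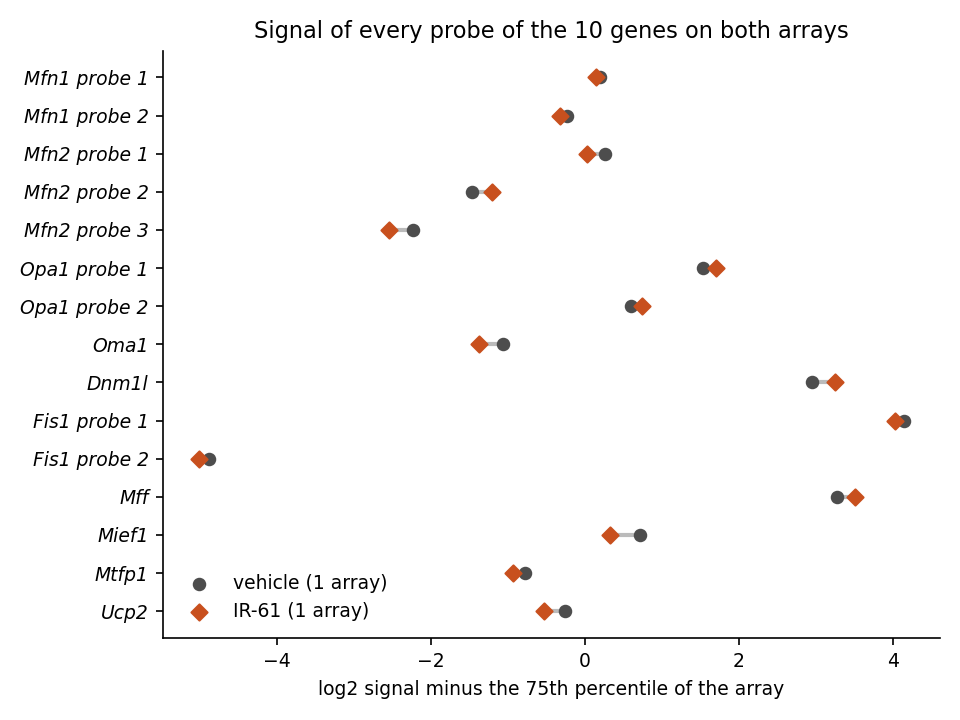
Signal of all 15 probes of the 10 genes with vehicle (grey circles) and with IR-61 (orange diamonds), as log2 signal minus the 75th percentile of the array (horizontal axis), with 1 row per probe. The paired points lie close together on every row, and only *Opa1*, *Dnm1l*, *Mff* and the second *Mfn2* probe have the IR-61 point on the right; distances between rows compare different probes and carry no meaning.

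Among the fusion genes, after scaling, *Opa1* was on the higher side on both of its probes and *Mfn1* on the lower side on both. The probes of *Mfn2* lay on both sides. *Mfn1*, one of the pair of outer membrane GTPases, had a processed signal of 1452 with vehicle and 1961 with IR-61, which after scaling is 0.20 and 0.15 and a difference of −0.05. Its second probe (1077 and 1416) gave −0.09. Both values were within 1 spot SD of 0 (0.09) at this scaling, but the brightest probe was at −0.14 with scaling by the median and at −0.155 relative to the median of all genes, so whether *Mfn1* differed beyond its spot SD depends on where 0 is set. *Mfn2*, which also tethers mitochondria to the endoplasmic reticulum, had a signal of 1515 with vehicle and 1813 with IR-61 on its brightest probe, a difference of −0.23. The probes of *Mfn2* did not share a direction. A second one (458.5 and 770.8) gave 0.26 and the dimmest (269.9 and 303.3) gave −0.32, each with a spot SD of 0.23. The gap of 0.49 between the brightest pair of *Mfn2* probes compares with a median gap of 0.32 and a 90th percentile of 0.83 over the 4160 genes with 2 or more measured probes. With the mean over its probes in place of the brightest one, *Mfn2* stood at −0.10.

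*Opa1* encodes the inner membrane fusion GTPase. Its brightest probe read 3652 with vehicle and 5754 with IR-61, or 1.53 and 1.70 after scaling, a difference of 0.17 with a spot SD of 0.09 and a software SD of 0.20. The other probe (1912 and 2971) gave 0.15, so the pair differed by 0.02 only. The brightest probe was at 0.085 with scaling by the median and at 0.068 relative to the median of all genes, both within its spot SD of 0.0946. Whether *Opa1* differed beyond its spot SD thus also depends on where 0 is set. *Oma1*, whose protease cuts the OPA1 protein, read 602.7 and 684.3 on its named probe, or −1.07 and −1.37 after scaling, a difference of −0.30 with a spot SD of 0.23. The difference of *Opa1* exceeded that of *Oma1* by 0.47. It exceeded that of the brightest *Mfn2* probe by 0.40, but the second *Mfn2* probe (0.26) lay above both *Opa1* probes, and with the mean over probes *Opa1* stood at 0.16 and *Mfn2* at −0.10.

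The fission genes lay on both sides of 0, with the GTPase and 1 of its receptors on the higher side and the others on the lower side. *Dnm1l* (probe A_55_P1952905) had the largest positive difference of the 10 genes. Its signal was 9799 with vehicle and 16867 with IR-61, or 2.96 and 3.25 after scaling, which is 1.23-fold and a log2 difference of 0.30. This was 3.12 times its spot SD and 1.45 times its software SD, and 71.3% of all measured genes had a lower value. Relative to the median of all genes *Dnm1l* was at 0.195, under its software SD of 0.204. *Mff*, a receptor that recruits DRP1, read 12282 and 20199, or 3.28 and 3.51 after scaling, a difference of 0.23 or 1.17-fold. Relative to the median of all genes *Mff* was at 0.13, while the genes on the lower side of 0 lay further below that median than below 0. For *Dnm1l* and for *Mff* 1 probe was named, so no second named probe can be set beside either value.

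*Mief1* (probe A_51_P151775), which encodes the DRP1 receptor MiD51, had the most negative difference of the group. It read 2074 with vehicle and 2216 with IR-61, or 0.72 and 0.32 after scaling, which is 1.31-fold lower and a log2 difference of −0.39. This was 4.15 times its spot SD and 1.93 times its software SD, and 11.3% of all measured genes lay lower still. *Fis1*, an outer membrane protein of the fission machinery, read 22439 and 29016 on its bright probe, a difference of −0.12, and 43.0 and 54.8 on a dim one, a difference of −0.14 with a spot SD of 0.46. The probes of *Fis1* were thus alike, and the dim one carries little weight. *Mtfp1*, the inner membrane fission gene, read 740.5 and 931.2, a difference of −0.16 with a spot SD of 0.23; with scaling by the median it was at −0.24, just beyond that SD.

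After scaling, the receptors for DRP1 did not share a side of 0. The difference of *Mff* exceeded that of *Mief1* by 0.62 and that of *Fis1* by 0.35, and the difference of *Dnm1l* exceeded that of the brightest *Mfn2* probe by 0.52. The 5 fission genes had a median of −0.12, with 2 higher and 3 lower, and the 3 fusion genes a median of −0.05, with 1 higher and 2 lower. The differences of the fusion genes lay inside the range of those of the fission genes.

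*Ucp2*, the uncoupling protein gene, read 1058 with vehicle and 1229 with IR-61 on its named probe, or −0.26 and −0.53 after scaling. The difference of −0.27 is 1.21-fold lower and was 2.87 times its spot SD and 1.33 times its software SD, and 17.1% of all measured genes lay lower. Its signal with vehicle was just above the band edge at a log2 intensity of 10. Genes in the band below had a spot SD of 0.23 in place of 0.09, so the multiple of 2.87 depends on that edge. Without scaling the same probe was higher by 0.22 on the IR-61 array, which is less than the 0.59 of the median gene.

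**Figure D2:**
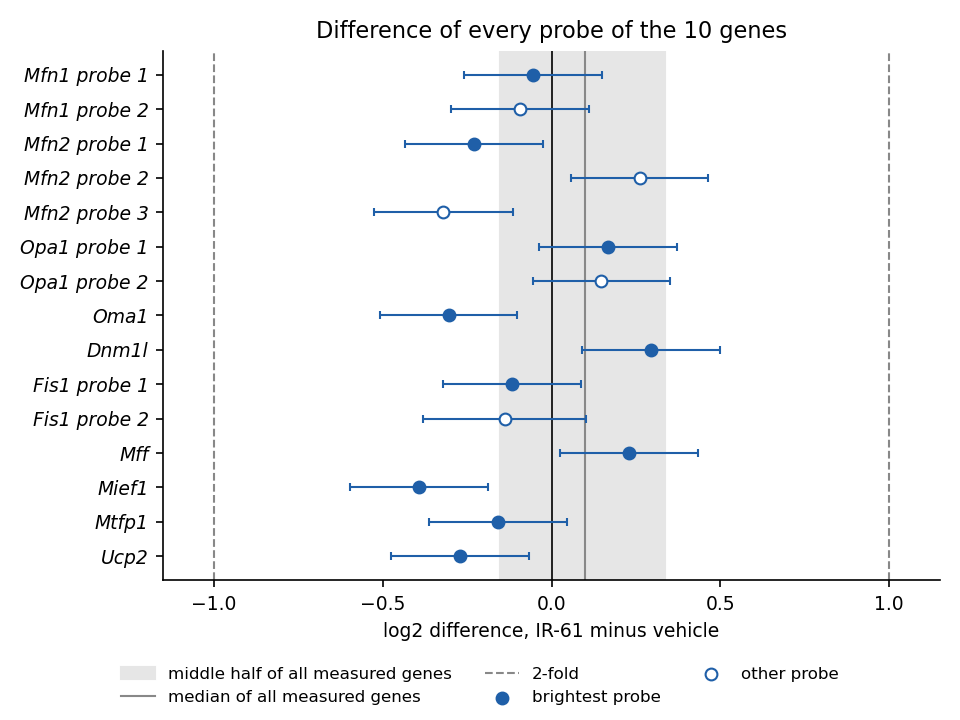
Log2 difference, IR-61 minus vehicle, of every probe of the 10 genes (filled points: the brightest probe of the gene; open points: its other probes), with bars of 1 SD from the error of the scanner software. The grey band runs from the lower to the upper quartile of all measured genes (−0.15 to 0.34), the grey line is their median (0.10) and the dashed lines are 2-fold; every point lies well inside the dashed lines, from −0.39 (*Mief1*) to 0.30 (*Dnm1l*).

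The SD across the 10 genes was 0.24, against 0.44 across all measured genes, which include dim probes with a larger spot SD than those of the 10, and 60.0% of all measured genes fell inside the range the 10 genes spanned. In rank, *Mfn1* had 33.5% of the measured genes below it, *Fis1* 27.8%, *Mtfp1* 24.7%, *Mfn2* 19.5% and *Oma1* 15.3%. On the other side, *Opa1* had 57.9% below it and *Mff* 64.8%. *Mief1*, *Oma1*, *Ucp2*, *Mfn2* and *Mtfp1* lay under the lower quartile of all genes (−0.154), a larger share of the 10 than a quartile leaves below it, and none lay above the upper one. The place of *Mfn2* there is that of its brightest probe, as its mean over probes was −0.10. *Mtfp1* (−0.158) was close to the limit.

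**Figure D3:**
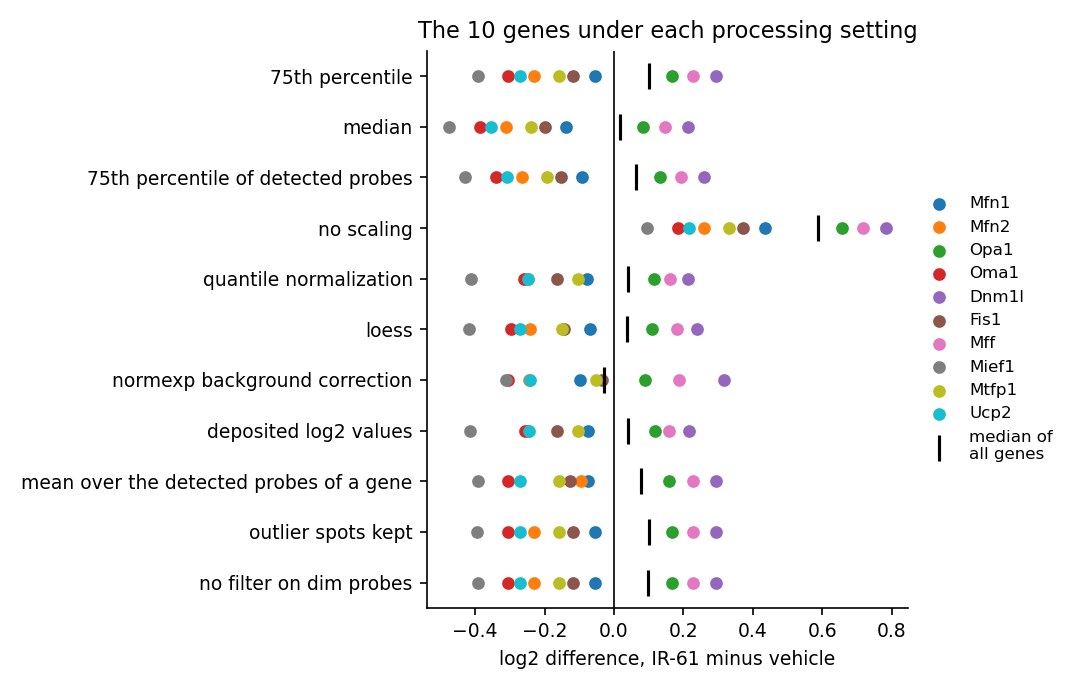
Log2 difference, IR-61 minus vehicle (horizontal axis), of the 10 genes (coloured points) under the main setting, scaling by the 75th percentile, and 10 other ways of processing the arrays; the black bar is the median of all genes under that setting. In every row *Mief1* is lowest and *Dnm1l* highest, and 7 genes lie left of the black bar and 3 right of it, while without scaling all points lie right of 0.

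The promoters of the genes at both ends of the range and of *Opa1* are shown so that their sequence can be read beside these values. Each is the run of 250 bases before the outermost RefSeq start of the gene, 5′ to 3′ along the gene, in the mouse assembly GRCm38.p6: chr16:16359032-16359281 on the minus strand for *Dnm1l*, chr15:80233830-80234079 on the plus strand for *Mief1* and chr16:29579084-29579333 on the plus strand for *Opa1*. Capitals mark matches on either strand to the GC box GGGCGG, the ETS core CGGAAGT and the core of the site of nuclear respiratory factor 1, GCGCATGC.

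Dnm1l: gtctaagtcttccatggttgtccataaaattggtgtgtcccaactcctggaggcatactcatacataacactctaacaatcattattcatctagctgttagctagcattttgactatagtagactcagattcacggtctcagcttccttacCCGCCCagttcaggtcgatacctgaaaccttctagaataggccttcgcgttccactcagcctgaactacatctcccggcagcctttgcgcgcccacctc

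Mief1: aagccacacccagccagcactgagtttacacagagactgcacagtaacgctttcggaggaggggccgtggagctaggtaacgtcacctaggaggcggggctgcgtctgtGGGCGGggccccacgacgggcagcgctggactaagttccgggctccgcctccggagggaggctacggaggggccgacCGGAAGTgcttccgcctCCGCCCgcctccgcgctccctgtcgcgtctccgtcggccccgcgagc

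Opa1: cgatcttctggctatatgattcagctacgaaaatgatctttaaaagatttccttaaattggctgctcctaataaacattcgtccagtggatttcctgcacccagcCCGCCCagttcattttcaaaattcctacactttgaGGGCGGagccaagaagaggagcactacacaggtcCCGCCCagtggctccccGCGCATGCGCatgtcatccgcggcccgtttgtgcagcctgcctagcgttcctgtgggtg

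The GC box was found in 9 of the 10 promoters (not in that of *Mtfp1*) and in 32.7% of 32851 promoter windows of the same length. The ETS core was found in 4, those of *Mfn1*, *Fis1*, *Mff* and *Mief1*, and in 4.92% of all windows, and the nuclear respiratory factor core in 1, that of *Opa1*, where it matched on both strands in overlapping positions, and in 2.26% of all windows. The higher genes *Dnm1l*, *Mff* and *Opa1* shared no motif beyond the GC box, and the ETS core was in promoters of genes on both sides of 0. These are matches of letters, searched after the differences were known, and not measured binding sites. Each of the 10 genes gave its outermost start only, while the windows held every start listed, for genes measured on the arrays or not. The shares are thus of unlike sets, and enrichment was not tested.

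The wider machinery held no gene past 2-fold either, where over all measured genes 1.39% were lower and 1.99% higher. Of 41 further genes of mitochondrial dynamics, transport and uncoupling, 39 were measured on both arrays, 0 passed 2-fold in either direction, 23 lay below 0 and 16 above, and the median was −0.04. At 1.5-fold 5.69% of all measured genes were lower and 9.79% higher. In the wider list 2 were lower and 2 higher, too few to tell apart from these shares. The lower ones were *Immt*, which organises cristae junctions (928.7 and 812.1; −0.68), and *Parl*, an inner membrane protease named here after its value was seen (2571 and 2306; −0.65, and −0.86 on a second probe). The higher ones were *Afg3l2*, an m-AAA protease subunit linked to OPA1 processing (11167 and 23852; 0.61), and *Pld6*, a lipase of the outer membrane (0.94) that was dim, at 35.0 and 93.9. *Immt* and *Parl* were the only ones of these 4 with a lower raw signal on the IR-61 array.

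Over all measured genes 6554 of 16885 lay below 0 and 10331 above, and the counts that follow are small and untested. By role, 5 of 7 other fusion and outer membrane genes lay above 0, with a median of 0.39 and a lowest value of −0.17 for *Mul1*, an outer membrane ubiquitin ligase. Other fission genes centred on 0.03 over 7 measured of 8, from −0.30 for *Mief2*, the paralog of *Mief1*, to 0.35 for the brightest probe of *Mtfr1l*, whose second probe (643.4 and 511.2) gave −0.82; *Mief2* was dim, at 30.9 and 35.2, and *Gdap1* was not well above background on either array. Of 14 genes of the inner membrane and OPA1 processing, 9 lay below 0, with a median of −0.02. Of 6 transport genes 5 lay below 0, with a median of −0.11, from −0.21 for the adaptor *Trak2* to 0.48 for the outer membrane GTPase *Rhot1*, with −0.65 and 0.21 on their second probes. Of the other uncoupling proteins and inner membrane carriers, 4 of 5 measured genes lay below 0, with a median of −0.14, the lowest being *Ucp3* at −0.28 (1598 and 1852) and the highest *Slc25a14* at 0.20. A second *Ucp3* probe was not well above background on either array, and neither was the probe of *Ucp1*.

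**Figure D4:**
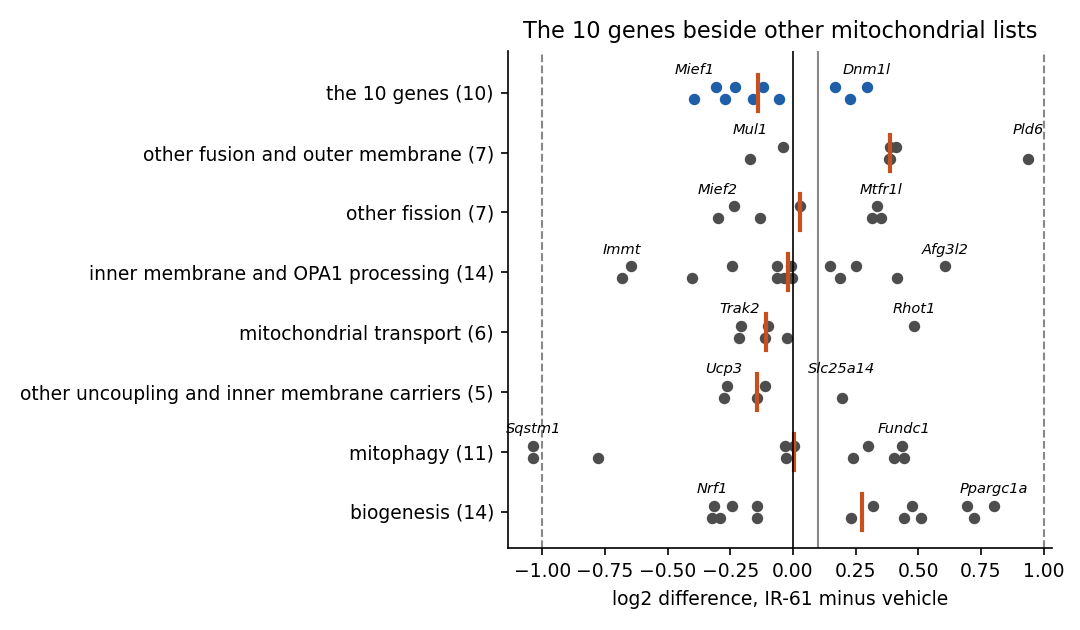
Log2 difference, IR-61 minus vehicle (horizontal axis), of the 10 genes (blue) and of other mitochondrial lists (grey), with the number of measured genes in brackets, the median of each list as an orange bar, the median of all genes as a grey line and 2-fold as dashed lines. The 10 genes and all dynamics lists lie between the dashed lines, and of the lists shown only mitophagy has genes past one of them, *Sqstm1* and *Tax1bp1*.

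For comparison with the machinery that removes and makes mitochondria, 11 mitophagy genes had a median of 0.00 and 2 of them were lower by 2-fold or more: the autophagy receptors *Sqstm1* (8154 and 5580; −1.04) and *Tax1bp1* (8553 and 5855; −1.03). Without scaling both stood at −0.55. Over all measured genes 1.39% were lower and 1.99% higher by 2-fold or more, and the counts of these short lists were not tested against those shares. By its brightest probe the highest mitophagy gene was *Fundc1*, an outer membrane receptor, at 0.44. *Bnip3* stood at 0.40 on its brightest probe, and at 0.72 (2711 and 6253) and 0.17 on its other probes. Of 14 genes of mitochondrial biogenesis none passed 2-fold, and the median was 0.27, with the coactivator *Ppargc1a* highest at 0.80 and the transcription factor *Nrf1* lowest at −0.32 (−0.96 and −0.42 on its other probes). *Ppargc1a* was rather dim (175.3 and 428.4, spot SD 0.231) and stood at 0.53 with normexp background correction. Its second probe was not well above background on either array. Beside these genes, the largest differences of the fusion, fission and uncoupling group (−0.39 and 0.30) were smaller than those of *Sqstm1*, *Tax1bp1* and *Ppargc1a*. The latter were named because they were at the ends of their lists or past 2-fold, so this does not compare the lists as wholes.

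The labels named the cultures as RAW264.7 cells, and marker genes were read beside that name. All 7 macrophage markers matched on the array were measured on both arrays, among them *Csf1r* (0.06, and −0.65 and −0.12 on its other probes), *Lyz2* (−0.18) and *Ptprc* (−0.09), but *Adgre1* (1.03), *Fcgr1* (0.99) and *Itgam* (0.65, and 0.12 and 0.41 on its other probes) were higher and *Spi1* (−0.83) lower with IR-61. Of the markers of other cells, the 3 fibroblast genes were measured too, with *Col1a1* at 27148 and 58670 (0.62), *Col1a2* at 0.10 and *Pdgfra* at 0.33. The macrophage marker *Lyz2* read 19511 and 24217, so *Col1a1* was not dim beside it, though signals of different probes are not directly comparable. The markers alone thus do not identify the cells. The T cell genes *Cd3e* (0.00) and *Cd3d* (−0.41) and the B cell gene *Ms4a1* (−1.46) were above background on both arrays, *Plin1* was at 16.9 and 52.0, and *Epcam*, *Cdh1* and *Adipoq* were not well above background. Their part in the values of the 10 genes was not tested. In such bulk RNA, fewer cells of a type and less RNA per cell cannot be told apart.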

How the data were processed

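RNA of RAW264.7 cells was taken after 24 h with vehicle or with IR-61 and hybridized to 1 Agilent single-colour array per condition. The authors deposited the intensity of each spot from Agilent Feature Extraction (11.0.1.1 in the file headers, 11.0.0.1 in the submitters' processing notes), background-subtracted and not scaled between arrays, with flags. A further deposited table holds log2 values with equal quartiles on both arrays (4.59 and 10.66) and was used as an alternative; how it was made is not given in the sources used here.

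Spots with an outlier flag (124 with vehicle, 139 with IR-61) were dropped, the remaining log2 intensities were averaged by probe, and each array's 75th percentile over 39419 non-control probes was subtracted. Of these, 27224 were named through RefSeq (GRCm38.p6). The brightest unsaturated probe stood for a gene, and it had to be well above background on each array (77.6% and 81.2% of probes were) to count as measured; all 15 probes of the 10 genes did. The lowest signals well above background were 12.8 and 15.0, and no spot was saturated. The number of arrays limits the precision. Groups came from the labels and no test was run. Named were the 10 genes and, of each other list, the highest and lowest measured gene, every gene at 2-fold or more and genes above background on neither array; of the 12 mitophagy genes and 8 macrophage markers listed, 1 each was not matched, and 1 marker gene of other cells is not reported here. The genes and lists were chosen with earlier results of these data known. Motifs were searched with the promoter table of RefSeq.

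Alternatives were other scalings, normexp background correction (offset 50, on median signals; 4 IR-61 spots with a background above their signal got the array's median background, chosen after seeing the data), the deposited log2 table, the mean over probes, outlier spots kept, no filter on dim probes, and limits of 1.5-fold and 3-fold. The scripts were tested on simulated data. Python 3.11.15, numpy 2.4.6, pandas 2.3.3, matplotlib 3.10.9, R 4.3.3 and limma 3.58.1 were used.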

Additional observations from a re-analysis of the deposited data

How the results depend on the processing

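Under the main setting and all 10 others, 0 of the 10 genes passed 2-fold, *Mief1* was lowest, *Dnm1l* highest, and 7 genes lay below the median of all genes. With any scaling *Dnm1l* ranged from 0.21 to 0.32 and *Mief1* from −0.47 to −0.31. Without scaling the median of the 10 genes was 0.35 and 3 of them passed 1.5-fold. The median of all genes was then 0.588, itself about 1.5-fold, so the count of 3 does not set the 10 genes apart. Under that setting the wider list had a median of 0.45 and 2 of its 39 measured genes past 2-fold, *Pld6* (1.43) and *Afg3l2* (1.09). Of all 16885 measured genes, 2156 were higher by 2-fold or more without scaling. Without the filter on dim probes 1 of the 41 genes of the wider list, *Gdap1* (1.34), passed 2-fold, while 440 of all 20655 genes were lower and 921 higher. With the mean over probes *Mfn2* (−0.10) was the only one of the 10 to move beyond its spot SD, apart from the setting without scaling, where all 10 did. Normexp brought the dim *Pld6* to 0.34 and *Sqstm1* to −0.97.

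Genes lower and higher by 2-fold or more numbered 235 and 336, against 72 and 2156 without scaling, 149 and 124 with normexp, 440 and 921 without the dim filter, 295 and 249 with the median, 279 and 257 with quantile normalization, 279 and 255 with loess, 281 and 266 in the deposited values and 259 and 291 with the percentile of detected probes. No paired analysis was possible because there was 1 array per condition, and no array was left out for the same reason. Signals near background, such as those of *Pld6* and the dim *Fis1* probe, are the least certain.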
